A study of Mus musculus with 12 samples.

Results

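The genes described here mark B cells and plasma cells, together with the epithelial receptor that exports the antibody those cells make. They are Ms4a1, Cd79a, Cd79b, Pou2af1, Tnfrsf17, Mzb1, Jchain and Pigr, 8 of the 19938 genes measured. Each was found by its symbol among probe sets that name a single gene, and all 8 were measured, each by 1 probe set. Biopsies of colon tumors were taken by colonoscopy from 6 living mice and hybridised to Affymetrix mouse gene arrays, 1 late and 1 early biopsy of the same tumor per mouse, 12 arrays in all. Every animal was an F1 hybrid of SWR and C57BL/6, carried Apc Min/+ (a truncating mutation in 1 copy of Apc, a suppressor of Wnt signalling), and had drunk 4% dextran sodium sulfate, which injures the colon lining, in 2 treatments of 4 days around weaning. No mouse without the mutation or the treatment and no tumor-free colon is among these arrays, so each comparison is between tumors or between ages of a tumor.

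The late biopsy was read as intramucosal carcinoma, a cancer still within the mucosa, in mice 2201, 3407 and 3413, at 200 to 267 days of age. Mice 1755, 1803 and 1805 had adenoma, a benign tumor, in the late biopsy, at 234 to 395 days. The labels give no pathology for early biopsies, which were grouped by the later reading of the same tumor. They were taken at 87 to 117 days from tumors later read as carcinoma and at 86 to 94 days from those later read as adenoma. Each pathology holds 1 female and 2 males. A biopsy is a bulk mixture of tumor epithelium, stroma and immune cells, and 8 epithelial markers averaged 12.05 to 13.22 log2 over the 12 arrays. The 3 mice per pathology limit the precision of every comparison.

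B cells carry a surface antibody whose signal is passed on by the paired chains Cd79a and Cd79b, and most of them also carry Ms4a1, the CD20 antigen. After activation they may become plasma cells, which lose Ms4a1 and secrete antibody in bulk. The colon is a site of IgA: plasma cells of the lamina propria join IgA into dimers with the J chain, and the epithelium takes up these dimers through Pigr, the polymeric immunoglobulin receptor, and releases them into the lumen. Pigr is thus a gene of the epithelium, unlike the other 7.

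RefSeq promoters (GRCm38.p6, windows of 300 bases that end just past the start) were at hand for 5 of the 8 genes, those of Pigr, Jchain, Cd79a, Pou2af1 and Tnfrsf17. They were searched on both strands for the octamer ATGCAAAT, the site at which Pou2af1 and its Oct partners act in antibody gene promoters. None of the 5 promoters held it, and 1.74% of the 32851 promoters did. Also searched were CACGTG, an E-box, TGACGT, part of the site bound by CREB family factors, and GGAAGT, an Ets core. Each was found in 1 of the 5, against 7.15%, 7.51% and 23.8% of all promoters. The 120 bases before the start of these 3 genes are shown because they hold the matches, which stand in capitals. They lie on the plus strand at chr1:130826564-130826683 for Pigr, chr7:24897377-24897496 for Cd79a and chr9:51213570-51213689 for Pou2af1. A match gives letters only, and whether a factor binds there was not measured.
Pigr: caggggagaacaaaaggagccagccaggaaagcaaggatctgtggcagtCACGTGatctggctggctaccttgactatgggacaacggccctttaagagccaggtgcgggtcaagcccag
Cd79a: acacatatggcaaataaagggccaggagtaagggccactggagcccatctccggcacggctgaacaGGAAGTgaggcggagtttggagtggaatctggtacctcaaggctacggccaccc
Pou2af1: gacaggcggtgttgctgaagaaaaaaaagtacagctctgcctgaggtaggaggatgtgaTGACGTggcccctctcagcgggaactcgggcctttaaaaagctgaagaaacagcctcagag

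Values are log2 intensities as deposited, so a difference of 1 is a doubling, and array medians lay between 7.62 and 7.80. By mean over the 12 arrays, Ms4a1 was at percentile 25.9 of all genes, Cd79a at 31.7 and Tnfrsf17 at 33.0, in the dim part of the range. Mzb1 was at percentile 45.5, Cd79b at 45.8, Pou2af1 at 48.6, Jchain at 88.6 and Pigr at 97.2. The arrays fall into array groups by the submitters' sample numbers. The early arrays of mice 1755, 1803, 1805 and 2201 are numbered up to 255, and the other 8 arrays from 319 up. Averaged over the 50 probe sets of lowest number, the signal was 6.80 to 6.94 in the second array group and 7.08 to 7.19 in the first. Both arrays of mice 3407 and 3413 belong to the second array group, and the other 4 pairs cross from it to the first. All 3 adenoma pairs cross, so that in adenoma the late to early difference and the array group cannot be told apart. The late biopsies all lie in the second array group.

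**Figure D1:**
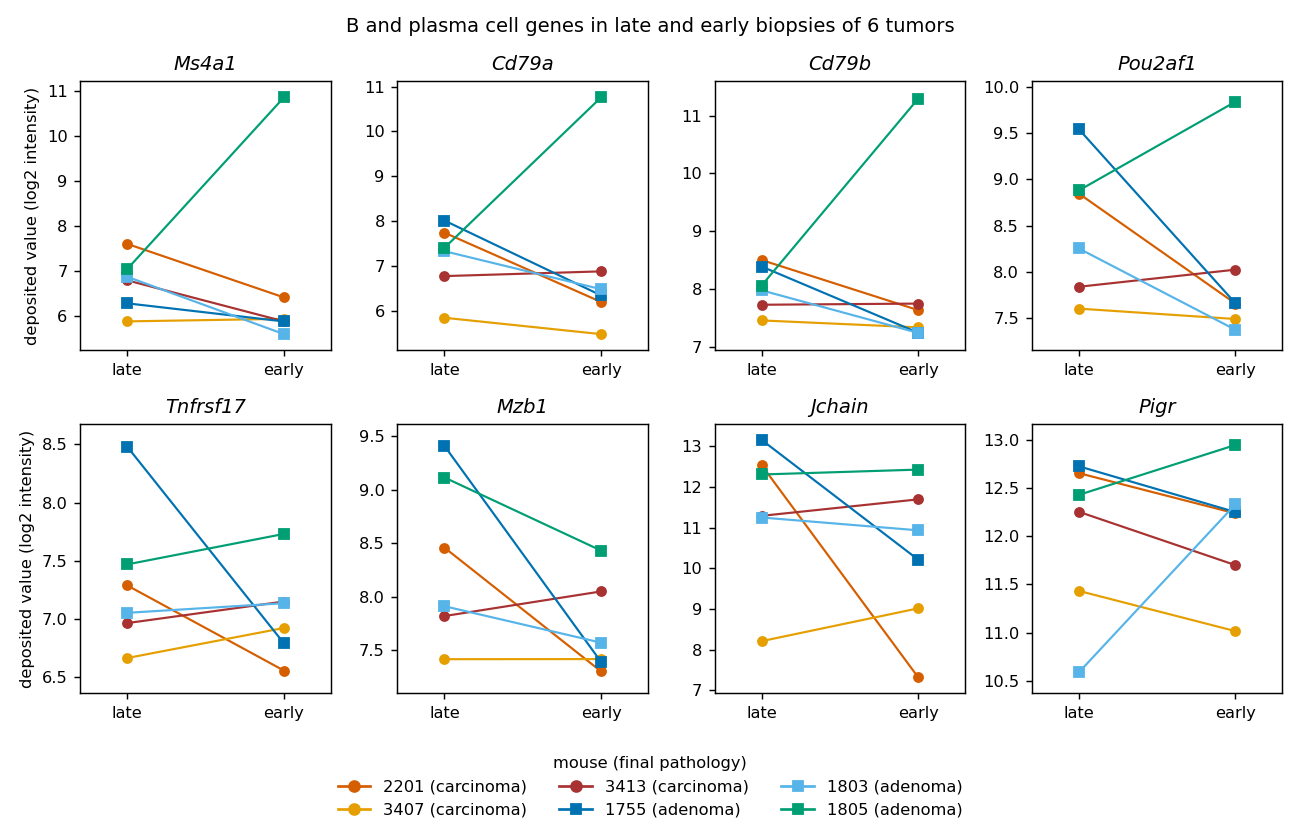
Deposited log2 intensity (vertical axes, a scale per gene) of each of the 8 genes in the late and the early biopsy of 6 tumors; lines join the biopsies of a mouse, circles are tumors read as carcinoma and squares tumors read as adenoma. The early biopsy of mouse 1805 stands above all others for Ms4a1, Cd79a and Cd79b, and Jchain spans the widest range, from 7.31 to 13.16.

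The B cell surface genes were high in 1 biopsy of the 12. Ms4a1 (probe set 10466172, on chromosome 19 in RefSeq) was at 7.60, 5.87 and 6.79 log2 in the late biopsies of carcinoma mice 2201, 3407 and 3413, and at 6.41, 5.93 and 5.87 in their early biopsies. In adenoma mice 1755, 1803 and 1805 it was at 6.28, 6.87 and 7.04 in the late biopsies and at 5.87, 5.59 and 10.87 in the early ones. The early biopsy of mouse 1805 stood far above the other 11, whose highest value was 7.60. In that mouse Ms4a1 was 14.2-fold lower late, and the late values of the 6 mice spanned 1.73. In bulk tissue, fewer B cells and less RNA per B cell cannot be told apart.

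Both chains that signal for the receptor were highest in the same biopsy. Cd79a (10551025, chromosome 7) was at 7.74, 5.84 and 6.77 in late and 6.19, 5.48 and 6.88 in early biopsies of mice 2201, 3407 and 3413. It was at 8.01, 7.33 and 7.40 in late and 6.34, 6.48 and 10.76 in early biopsies of mice 1755, 1803 and 1805. Cd79b (10392142, chromosome 11) was at 8.50, 7.45 and 7.72 in late and 7.63, 7.33 and 7.74 in early biopsies of the carcinoma mice. In the adenoma mice it was at 8.38, 7.97 and 8.06 late and at 7.24, 7.23 and 11.29 early. Leaving the early biopsy of mouse 1805 aside, the early values of Cd79b spanned 7.23 to 7.74 and its late values 7.45 to 8.50.

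In the early biopsy of mouse 1805, 3 of the 8 genes were at least 3 log2 above the median of the other 5 early biopsies, and 0.236% of all genes were. At a bar of 2 log2 it was 5 of 8, with Jchain and Pou2af1 added, against 0.802% of all genes, and at 1 log2 it was 6 of 8, against 2.72%. Ms4a1, at 10.87 against a median of 5.87, had the largest such excess of any gene. Cd79a ranked 4th, with an excess of 4.42, and Cd79b 11th, with 3.96. The genes around them in this order, named after their values were seen, were of more than 1 kind. The complement receptor Cr2 (excess 4.34), the low-affinity IgE receptor Fcer2a (4.05), the IgM receptor Fcmr (3.85), the adaptor Bank1 (3.75) and the transcription factor Spib (3.53) are B cell genes, Spib also a gene of the M cells that cover lymphoid follicles. Gp2, an M cell surface protein, was 3.53 higher. The chloride exchanger Slc26a3 (4.72), the carbonic anhydrase Car4 (4.24) and the brush border protease Mep1a (3.92) are genes of surface epithelium. The homeobox gene Hoxd13, active at the tail end of the body, was at 11.37 late and 11.41 early in this mouse, against a median of 7.21 in the other early biopsies. Their part in the excess of Ms4a1 was not tested.

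The other B cell genes, a list of 14 of which 13 were measured here, moved with Ms4a1 in mouse 1805. Their mean there was 7.26 late and 9.79 early, and 12 of the 13 were lower late by at least 1 log2. In the other 5 mice the mean change lay between -0.06 (mouse 3407) and 0.74 (mouse 2201). T cell genes, 9 measured, had a mean change of -0.76 in mouse 1805, with 0 of 9 higher late. Pan-leukocyte genes, 4 measured, had a mean change of -0.87 in that mouse, with 0 of 4 higher late. Its macrophage genes had a mean change of -0.05 and its neutrophil genes of 2.54. The 4 germinal centre genes measured did not stand high in that early biopsy: Rgs13 was 0.41 and Gcsam 0.19 above the median of the other early biopsies, and Bcl6 was at -0.16 and S1pr2 at -0.24 from it. Cxcl13, the chemokine that draws B cells into follicles, was at 9.24 late and 11.93 early in mouse 1805.

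Pou2af1 (10585276, chromosome 9) is the coactivator of Oct factors needed for germinal centres and made by B and plasma cells alike. It was at 8.85, 7.60 and 7.84 in late and 7.66, 7.49 and 8.02 in early biopsies of mice 2201, 3407 and 3413. In mice 1755, 1803 and 1805 it was at 9.54, 8.25 and 8.88 late and at 7.66, 7.37 and 9.84 early. Its early maximum was that of mouse 1805, as for all 8 genes. Its late maximum was that of mouse 1755, as for each of the others except Ms4a1 and Cd79b, which were highest late in mouse 2201.

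**Figure D2:**
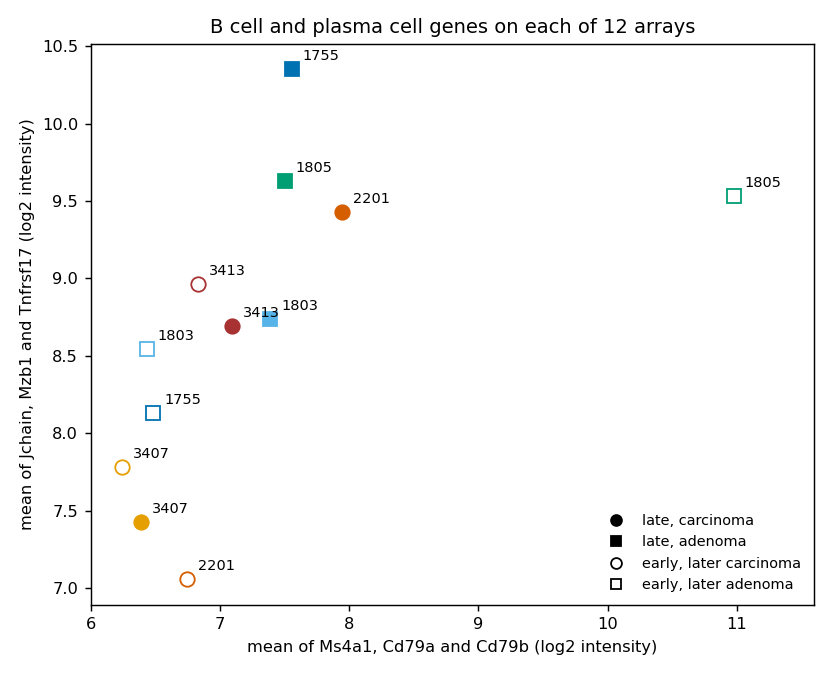
Mean log2 intensity of the B cell genes Ms4a1, Cd79a and Cd79b (horizontal) against that of the plasma cell genes Jchain, Mzb1 and Tnfrsf17 (vertical) on each of 12 arrays; filled symbols are late and open symbols early biopsies, circles carcinoma and squares adenoma tumors, labelled by mouse. The early biopsy of mouse 1805 lies alone at 10.97 on the horizontal axis, and the late biopsy of mouse 1755 is highest on the vertical axis at 10.35.

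The plasma cell genes were highest in other biopsies than the B cell genes. Jchain (10531126, chromosome 5), which joins IgA and IgM into polymers, was at 12.53, 8.21 and 11.29 in late and 7.31, 9.01 and 11.69 in early biopsies of mice 2201, 3407 and 3413. In mice 1755, 1803 and 1805 it was at 13.16, 11.25 and 12.31 late and at 10.21, 10.93 and 12.43 early. It was 37.3-fold higher late in mouse 2201 and 7.71-fold higher late in mouse 1755. In mouse 2201 only 1 gene, the light chain segment Igkv9-120, had a larger change. The change of Jchain was within 0.81 log2 of 0 in the other 4 mice.

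Mzb1 (10458278), a chaperone of the endoplasmic reticulum that helps to assemble antibody, was at 8.46, 7.42 and 7.82 late and at 7.30, 7.42 and 8.05 early in mice 2201, 3407 and 3413. In mice 1755, 1803 and 1805 it was at 9.41, 7.91 and 9.12 late and at 7.39, 7.57 and 8.43 early. Tnfrsf17 (10433584, chromosome 16), the BCMA receptor that keeps plasma cells alive, was at 7.29, 6.66 and 6.96 late and at 6.55, 6.92 and 7.15 early in the carcinoma mice. In the adenoma mice it was at 8.48, 7.05 and 7.47 late and at 6.79, 7.13 and 7.73 early. Mouse 1755 had the largest change of both genes, 2.02 for Mzb1 and 1.69 for Tnfrsf17, and mouse 2201 the next, 1.16 and 0.73. The early biopsy of mouse 1805, with its high Ms4a1, was also the highest early biopsy for all 3 plasma cell genes, with Jchain 2.22, Mzb1 1.01 and Tnfrsf17 0.81 above the median of the other early biopsies.

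Antibody genes rose with Jchain in mice 2201 and 1755. Of the 11 immunoglobulin genes measured by a probe set of their own, 11 were higher late in mouse 2201 and 11 in mouse 1755, by a mean of 3.45 and 3.52 log2. The mean change was 0.98 in mouse 1803, 0.21 in mouse 1805, -0.37 in mouse 3407 and -0.27 in mouse 3413. The medians in these mice were 0.96, 0.77, -0.28 and -0.20, with 9, 7, 2 and 3 of the 11 higher late. In mouse 1805 only 1 of the 11 was lower late by at least 1 log2, a light chain segment at -3.44, which pulled the mean below the median. Igha, the IgA heavy chain, was at 12.10 late and 8.75 early in mouse 2201, and at 13.14 late and 10.34 early in mouse 1755. Its change was -0.35 in mouse 3407, -0.55 in mouse 3413, 2.28 in mouse 1803 and 1.01 in mouse 1805. In mice 1803 and 1805 Jchain changed by 0.32 and -0.12. Ighg3, a heavy chain of IgG, was at 10.28 late and 4.93 early in mouse 1755, the largest increase of any gene in that mouse, and lay between 4.91 and 6.62 on the other 10 arrays. Some variable segments of light chains are close to one another in sequence, so a probe set for 1 of them may read others. The other plasma cell genes, 14 measured, had smaller changes, a mean of 0.56 in mouse 1755, 0.31 in mouse 2201 and -0.13 to 0.20 in the rest. They did not all go 1 way, with 12 of 14 higher late in mouse 1755 and 9 of 14 in mouse 2201. Irf4, a transcription factor of plasma cell formation chosen after its values were seen, was at 8.03 late and 6.35 early in mouse 2201, at 8.59 late and 6.36 early in mouse 1755, and highest in the early biopsy of mouse 1805, at 8.22 late and 8.62 early. Prdm1, another such factor, had changes of 0.28 in mouse 2201 and -0.73 in mouse 1755, and Sdc1, the surface marker CD138 that epithelium also carries, of -0.41 and -0.14.

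Pigr (10349580, chromosome 1) was at 12.66, 11.43 and 12.25 in late and 12.24, 11.01 and 11.70 in early biopsies of mice 2201, 3407 and 3413. In mice 1755, 1803 and 1805 it was at 12.73, 10.59 and 12.43 late and at 12.25, 12.33 and 12.95 early. It was higher late in all 3 carcinoma mice, by 0.42, 0.42 and 0.55, and in adenoma mouse 1755 by 0.48. The late minus early difference was -1.75 in mouse 1803 and -0.52 in mouse 1805. The early biopsy of mouse 1805 had the highest Pigr of the 12, as for Ms4a1, Cd79a, Cd79b and Pou2af1. Mouse 1755 had the highest late value, as for each of the other genes except Ms4a1 and Cd79b. Mouse 1803, with the lowest value of all arrays, had a mean change of the 8 epithelial markers measured of -0.25. This mean was -0.23 in mouse 2201, -0.29 in mouse 3407, 0.08 in mouse 3413, 0.01 in mouse 1755 and 0.36 in mouse 1805. Cytokines and signalling genes known to induce Pigr (8 measured) are Ifng, Il4, Il17a, Il17ra, Tnf, Irf1, Relb and Myd88. They had a mean change of -0.32 in mouse 1803, with 2 of 8 higher late, and of -0.03 to 0.21 in the other mice.

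The first comparison set the late against the early biopsy over all 6 tumors, with mouse as a block. limma called 0 of the 8 genes and 0% of all 19938 genes at an adjusted p under 0.05. At an unadjusted p under 0.05 it was 1 of 8, Mzb1, against 14.7% of all genes. Mzb1 was at 8.36 ± 0.78 log2 late and 7.69 ± 0.45 early (SD, n = 6 each), a difference of 0.66 (SE 0.28, limma adjusted p = 0.329), higher late in 4 of 6 mice. Jchain was at 11.46 ± 1.76 late and 10.26 ± 1.87 early, a difference of 1.19 (SE 0.79, adjusted p = 0.518), higher in 3 of 6 mice. Leaving out 1 mouse at a time, the difference of Jchain ran from 0.39 without mouse 2201 to 1.59 without mouse 3407, and that of Mzb1 from 0.39 without mouse 1755 to 0.84 without mouse 3413. Ms4a1 was at 6.74 ± 0.60 late and 6.76 ± 2.03 early, a difference of -0.02 (SE 0.64, adjusted p = 0.993), although it was higher late in 4 of 6 mice. The remaining differences were 0.49 for Pou2af1 (SE 0.34), 0.27 for Tnfrsf17 (SE 0.27), 0.16 for Cd79a (SE 0.62), -0.06 for Cd79b (SE 0.54) and -0.07 for Pigr (SE 0.31). The median over the 8 genes was 0.22, and -0.02 over all genes, and 5 of 8 lay above 0, against 42.1% of all genes.

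The lists are set beside the same median of -0.02 over all genes, and limma called 0 genes of any list in this comparison. All 11 immunoglobulin genes had a difference above 0, with a median of 1.22, and 4 of them had an unadjusted p under 0.05. Of the other plasma cell genes 10 of 14 lay above 0 (median 0.13, 2 at that p), and of the other B cell genes 1 of 13 (median -0.12, 0 at that p). T cell genes had 7 of 9 above 0 (median 0.05) and pan-leukocyte genes 4 of 4 (median 0.30). Neutrophil, fibroblast and endothelial genes lay above 0 without exception, 5 of 5, 6 of 6 and 5 of 5, with medians of 0.91, 0.79 and 0.95, and 4 of each list had an unadjusted p under 0.05.

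**Figure D3:**
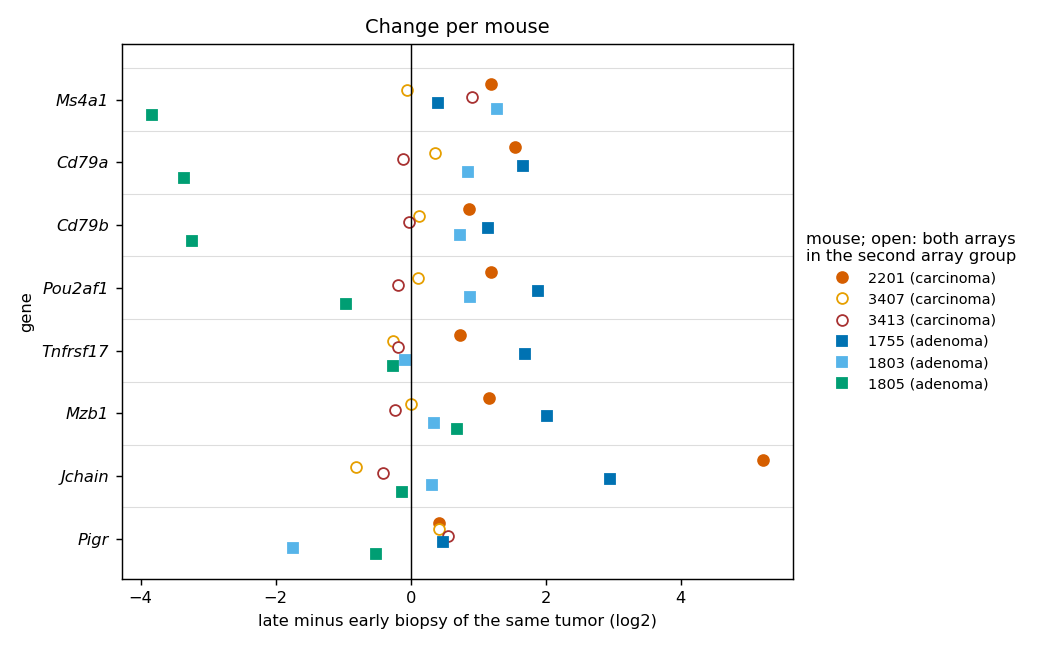
Late minus early difference in log2 (horizontal) of each of the 8 genes in each mouse; circles are carcinoma and squares adenoma tumors, and open symbols mark the 2 pairs whose arrays both lie in the second array group. Mouse 1805 lies at -3.83 for Ms4a1 and mouse 2201 at 5.22 for Jchain, and the open symbols lie between -0.81 and 0.91.

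The changes were also averaged by whether a pair crosses the array groups. This cannot be told apart from which mice make up each set, and both pairs within are carcinoma. Among the pairs across, the change of Jchain ran from -0.12 in mouse 1805 to 5.22 in mouse 2201. In the 2 pairs within the second array group the mean change was -0.61 for Jchain, -0.12 for Mzb1, -0.22 for Tnfrsf17 and -0.036 for Pou2af1. In the 4 pairs across the array groups it was 2.09 ± 2.49, 1.05 ± 0.73, 0.52 ± 0.89 and 0.75 ± 1.21 (SD). Ms4a1 had means of 0.43 within and -0.24 ± 2.43 across, and Pigr of 0.49 within and -0.34 ± 1.04 across. Endothelial and fibroblast genes were also higher late in the mice with the largest Jchain changes, by a mean of 1.23 and 1.04 in mouse 2201 and of 1.17 and 1.09 in mouse 1755. They were higher still in mouse 1803 (1.62 and 2.32), where the difference of Jchain was 0.32. Their part in the values of Jchain was not tested.

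Within single mice, 6 of the 8 genes were higher late by at least 1 log2 in mouse 1755, where 1.8% of all genes were. In mouse 2201 it was 5 of 8, against 2.59%. In mouse 1803 it was 1 of 8, Ms4a1 at 1.28, against 2.23%, and Pigr was lower by that much, as were 1.08% of genes. That increase of Ms4a1 ran from 5.59 early to 6.87 late, below the medians of these arrays, 7.72 early and 7.76 late. In mouse 1805, 3 of 8 were lower late by at least 1 log2, against 2.34%, and 0 of 8 were higher, against 2.43%. In mouse 2201, 0 of 8 were lower, against 0.351%. In mice 3407 and 3413, 0 of 8 passed this bar in either direction, where 0.617% and 0.191% of genes were higher and 0.782% and 0.371% lower. Mouse 1755 was read as adenoma and mouse 2201 as carcinoma, so the largest increases came from a tumor of each kind.

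Within the carcinoma tumors alone, limma called 0 of 8 genes, and 0% of all genes. At an unadjusted p under 0.05 it was 0 of 8, against 4.3%. All 8 differences lay above 0, against 39.8% of all genes, and ran from 0.10 for Tnfrsf17 (SE 0.39) to 1.34 for Jchain (SE 1.19, adjusted p = 0.952). Without mouse 2201, the differences of Jchain, Tnfrsf17, Mzb1 and Pou2af1 were -0.61, -0.22, -0.12 and -0.036. Within single carcinoma mice, 8 of 8 genes were higher late in mouse 2201, 4 of 8 in mouse 3407 and 2 of 8 in mouse 3413. The median change over all genes was -0.087, 0.0097 and -0.010 in these mice. Within the adenoma tumors, limma called 0 of 8 genes, against 0.125% of all genes. At an unadjusted p under 0.05 it was 1 of 8, against 18%. This was Mzb1, at 8.81 ± 0.79 late and 7.80 ± 0.56 early (SD, n = 3 each), a difference of 1.01 (SE 0.37, adjusted p = 0.231), higher in 3 of 3 mice, and a difference of 0.51 without mouse 1755. In all, 4 of 8 differences lay above 0, against 47.2%. Ms4a1, Cd79a and Cd79b differed by -0.72, -0.28 and -0.45 in the adenoma tumors, and by 0.84, 1.26 and 0.94 without mouse 1805.

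Whether the change differed between the pathologies was tested in the same fit. limma called 0 of 8 genes, and 0% of all genes. At an unadjusted p under 0.05 it was 0 of 8, against 7.04%. Pigr had the smallest p of the 8, with a mean change of 0.46 ± 0.08 in carcinoma and -0.60 ± 1.11 in adenoma tumors (SD, n = 3 each), a difference of 1.06 (SE 0.51, adjusted p = 0.727). Without mouse 1803 the adenoma change of Pigr was -0.021 and the difference 0.48, and without mouse 1755 the difference was 1.60. Mouse 1755 lay within the carcinoma range, so the groups overlapped, and 13.1% of all genes had groups that did not. The difference lay above 0 for 5 of 8 genes, against 47.1%. Of these 5, Ms4a1, Cd79a and Cd79b were at -0.16, -0.66 and -0.62 without mouse 1805, and Jchain turned under 3 of the 6 omissions.

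The late biopsies of carcinoma, taken at 227 ± 35.2 days of age, were next set against those of adenoma, taken at 333 ± 86.4 days (SD, n = 3 each). The part of age was not tested. Jchain, Mzb1, Tnfrsf17, Pou2af1, Cd79a and Cd79b were each lower in carcinoma on average, and none passed the test. limma called 0 of 8 genes and 0% of all genes. At an unadjusted p under 0.05 it was 0 of 8, against 11.7%. Mzb1 was at 7.90 ± 0.53 in late carcinoma and 8.81 ± 0.79 in late adenoma (SD, n = 3 each), a difference of -0.91 (SE 0.44, adjusted p = 0.447). Tnfrsf17 differed by -0.70 (SE 0.39, adjusted p = 0.504), Jchain by -1.56 (SE 1.32, adjusted p = 0.678) and Pou2af1 by -0.80 (SE 0.61, adjusted p = 0.637). Leaving out 1 mouse at a time, Jchain ran from -2.49 without mouse 2201 to -0.33 without mouse 3407, and Tnfrsf17 was at -0.29 without mouse 1755. Mzb1 ran from -1.36 without mouse 1803 to -0.62 without mouse 1755. Cd79a differed by -0.80 (SE 1.05, adjusted p = 0.805) and Cd79b by -0.25 (SE 0.91, adjusted p = 0.944). Ms4a1 differed by 0.03 (SE 1.13) and Pigr by 0.20 (SE 0.52), these being the 2 of 8 that lay above 0, against 54.2% of all genes. The groups overlapped for all 8 genes, and 14.9% of all genes had groups that did not. The low end of carcinoma came from mouse 3407, the lowest late biopsy for 7 of the 8 genes, Pigr being the exception. Of the 11 immunoglobulin genes, 11 had a difference below 0, with a median of -1.55, against 0.016 over all genes, and limma called 0 (2 at an unadjusted p under 0.05). Igkv6-20 (-2.22, SE 0.76, adjusted p = 0.401) and Ighm (-2.33, SE 0.89, adjusted p = 0.409) had the smallest p. T cell genes had 9 of 9 differences above 0, with a median of 0.42, 0 called and 2 at an unadjusted p under 0.05. Epithelial markers had 8 of 8 below 0, with a median of -0.19, 0 called and 4 at that p.

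At the early biopsy, tumors later read as carcinoma were compared with those later read as adenoma. limma called 0 of 8 genes and 0% of all genes, and at an unadjusted p under 0.05 it was 0 of 8, against 12%. All 8 differences lay below 0, from -0.21 for Mzb1 (SE 0.44) to -1.85 for Jchain (SE 1.32, adjusted p = 0.603), and 60.1% of all genes lay above 0. Without the early array of mouse 1805, those of Ms4a1, Cd79b, Pou2af1 and Mzb1 were at 0.29, 0.34, 0.21 and 0.062, and that of Cd79a at -0.20. Without mouse 2201, the difference of Jchain was -0.83, and without mouse 3413 it was -3.03. Pigr was at 11.65 ± 0.61 in early biopsies of later carcinoma and 12.51 ± 0.38 in those of later adenoma (SD, n = 3 each), a difference of -0.86 (SE 0.52, adjusted p = 0.538). It was the only 1 of the 8 genes whose groups did not overlap, as in 18.1% of all genes, although mouse 2201, at 12.24, lay next to mouse 1755, at 12.25. Array group and final pathology go together here, since all 3 adenoma arrays and 1 of 3 carcinoma arrays lie in the first array group. With array group as a term, the difference of Jchain was -4.53 (adjusted p = 0.461), where mouse 2201 gives the single carcinoma array of the first array group.

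Among genes of homing and survival (14 measured of 16), 0 were called in any of these comparisons. Cxcl13 was higher late in all 3 carcinoma tumors, at 11.12, 10.33 and 10.50 late and 8.93, 8.27 and 9.28 early in mice 2201, 3407 and 3413. The mean difference was 1.83 (SE 0.59, adjusted p = 0.952), and mice 3407 and 3413 lie within an array group. Their Ms4a1 changes were -0.06 and 0.91. In adenoma mice 1755, 1803 and 1805, Cxcl13 changed by 0.61, 0.06 and -2.69. Madcam1, the vessel ligand for gut-homing lymphocytes, differed by 0.51 over all tumors (SE 0.24, adjusted p = 0.365), and Tnfsf13b, the BAFF survival factor, by 0.45 (SE 0.21, adjusted p = 0.362). Ccl28, an epithelial chemokine for IgA plasma cells, was at 9.26, 8.40 and 8.76 in late carcinomas of mice 2201, 3407 and 3413, against 11.14, 8.53 and 11.51 in late adenomas of mice 1755, 1803 and 1805 (difference -1.59, SE 0.73, adjusted p = 0.433). The groups overlapped, and the early biopsies of the same tumors differed by -1.60 (SE 0.73, adjusted p = 0.419). Of the 9 genes of receptor signalling measured, 0 were called, and Plcg2, the phospholipase of that pathway, had a late minus early difference of -0.51 in adenoma tumors (SE 0.10, adjusted p = 0.0939).

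**Figure D4:**
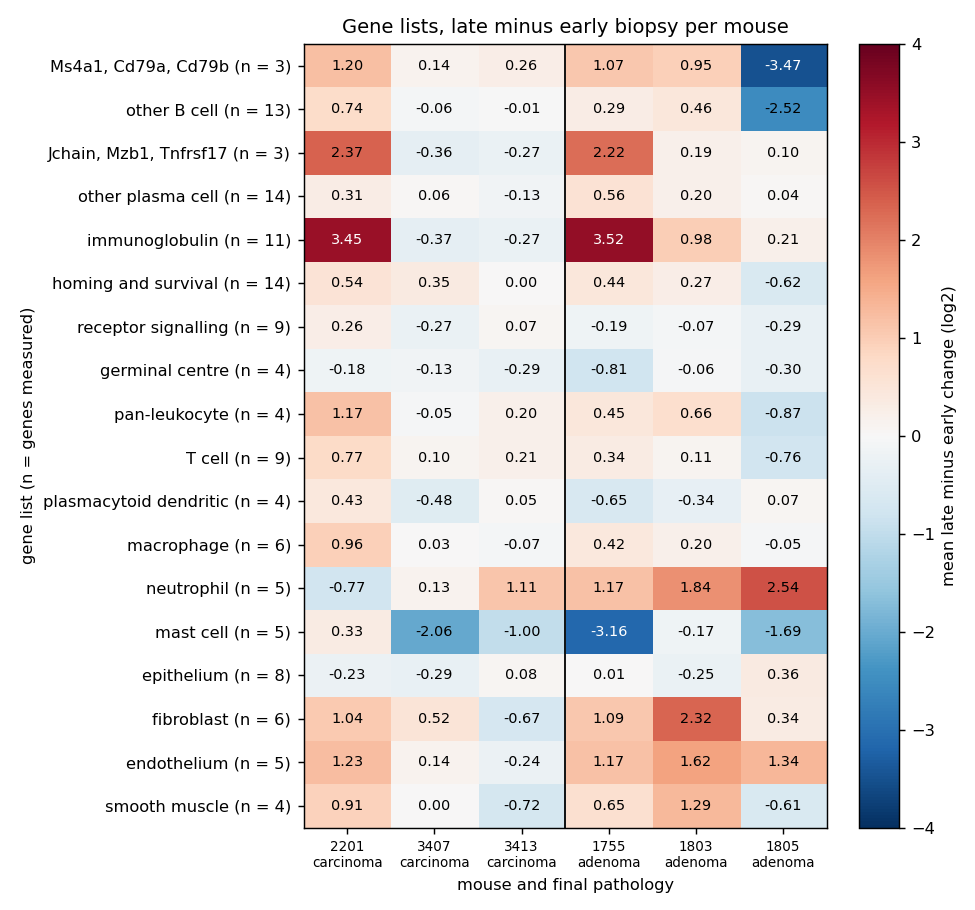
Mean late minus early change in log2 (colour and number) of gene lists (rows, with the number of genes measured) in each mouse (columns, carcinoma left of adenoma). Immunoglobulin genes stand at 3.45 in mouse 2201 and 3.52 in mouse 1755, and the B cell lists at -3.47 and -2.52 in mouse 1805.

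All 8 genes varied between biopsies more than the median gene did. The SD over the 12 arrays was 1.84 log2 for Jchain, above which lay only 18 genes, and 1.43, 1.38 and 1.10 for Ms4a1, Cd79a and Cd79b, where the median gene had 0.163. Without the early array of mouse 1805 these 3 had 0.63, 0.80 and 0.44, and Jchain 1.86. Tnfrsf17 had the smallest SD of the 8, at 0.53.

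The genes most like the mean of the 7 lymphocyte genes over the 12 arrays, by Pearson's r, were the adaptor Lax1 (0.95), the receptor Slamf7 (0.95), Plscr4 (0.94), Irf4 (0.93) and the receptor Tnfrsf13b (0.93), followed by Lrig3, Cyfip2, Coro7, Gstt1 and Scgn (0.91 to 0.92). These r are a description, since the arrays come in pairs from a mouse and the early array of mouse 1805 weighs heavily. Without it, Slamf7 (0.94) and Irf4 (0.95) were 6th and 4th among all genes, and Scgn (0.83) was 67th. Those most like Pigr were Ifngr1, a receptor chain for interferon gamma (0.89), the nuclear receptor Hnf4g (0.89), Cbr3 (0.89), the vitamin D receptor Vdr (0.88) and Eps8 (0.86), genes outside the lymphocyte lists.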

How the data were processed

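Expression was measured in 12 biopsies, 1 array each. The authors deposited a log2 intensity for each of 35557 probe sets, a scale inferred from the range of the values, which were used unaltered. Summarisation and normalization are not given in the sources used here. Per the labels' protocols, each labelling reaction took 300 ng of RNA. Of the probe sets, 21789 carry 1 symbol, 1621 several and 12147 none, from GEO's platform annotation. The probe set with the highest mean stood for each of 19938 genes, with no filter on dim genes.

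Tests used limma 3.58.1 under R 4.3.3 (lmFit and eBayes, 2-sided, Benjamini-Hochberg over all genes, threshold 0.05), tested on simulated data. The simulated spread per gene was capped below that of these 8 genes, and no array group was simulated. It therefore does not show how the test behaves for them. Changes used mouse as a fixed block, and comparisons between pathologies a random block (consensus correlation 0.286). The animal pairs the arrays. Deviations from the time point's mean correlated at r = 0.110 to 0.527 within all 6 pairs. All 8 genes were tested in every comparison, and in some only part of them is named with a value. Also named are up to 4 genes per list by smallest unadjusted p, and the genes most alike, 10 for the lymphocyte genes and 5 for Pigr. Genes leading a single biopsy or mouse were named after their values were seen, as were Igha, Irf4, Prdm1, Sdc1, Ccl28 and Ighg3 where values per mouse are given. The members and the lists were chosen with earlier results of these data known. The 17 lists serve as description.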

Additional observations from a re-analysis of the deposited data

Results flagged for a closer look

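The early biopsy of mouse 1805 lay apart from the other 5 early biopsies, by Dixon's test at the 95% level, for Ms4a1 (10.87 log2), Cd79a (10.76), Cd79b (11.29) and Pou2af1 (9.84). The late minus early change of that mouse lay apart for Ms4a1 (-3.83), Cd79a (-3.36) and Cd79b (-3.24). These 7 came from 24 groups of 6 values, and chance alone sets apart a value in about 1 of 20 such groups. They rest on the same array, so they are not independent.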

How the results depend on the processing

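No gene of the 8 passed the limma threshold in the comparisons recomputed under 15 alternatives. All covered the 6 comparisons except the one without the early array of mouse 1805, run on the late and the early comparison between pathologies. Over all of these the smallest adjusted p was 0.110. Of 688 differences recomputed, 623 kept their direction and 65 did not. Without the replicate block, the paired fit's alternative, 48 of 48 kept it (smallest adjusted p 0.360), as they did under quantile normalization, a filter on dim genes, the mean of all probe sets and a trended robust prior. Centring each array put Ms4a1 at -0.021 between late carcinoma and late adenoma. Array weights put Ms4a1 at 0.32 and Cd79b at 0.21 late against early over all tumors, Cd79a at 0.46 and Cd79b at 0.21 in adenoma, and Tnfrsf17 at -0.062 in carcinoma. They also put the difference between the changes at -0.12 for Cd79a, -0.030 for Cd79b and -1.02 for Jchain, and Pigr at -0.17 between late carcinoma and late adenoma. With array group as a term, the late against early difference over all tumors was 0.43 for Ms4a1, 0.050 for Cd79b, -0.036 for Pou2af1, -0.22 for Tnfrsf17, -0.12 for Mzb1, -0.61 for Jchain and 0.49 for Pigr, and in carcinoma the same -0.036, -0.22, -0.12 and -0.61 for Pou2af1, Tnfrsf17, Mzb1 and Jchain. In adenoma it was -0.62 for Pou2af1, -0.51 for Tnfrsf17, -0.26 for Mzb1 and -4.78 for Jchain, and the difference between the changes was 0.59, 0.28 and 0.14 for Pou2af1, Tnfrsf17 and Mzb1. Every adenoma pair crosses the array groups, so that term rests there on the carcinoma pairs, of which only that of mouse 2201 crosses. Without the early array of mouse 1805, an alternative chosen after seeing the data, the early difference between pathologies was 0.29 for Ms4a1, 0.34 for Cd79b, 0.21 for Pou2af1 and 0.062 for Mzb1. The cause of these turns was not tested.

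Leaving out each mouse in turn gave these ranges where a direction turned. Over all tumors, late against early ran from -0.27 to 0.75 for Ms4a1, -0.14 to 0.87 for Cd79a, -0.31 to 0.57 for Cd79b, -0.011 to 0.38 for Tnfrsf17 and -0.19 to 0.27 for Pigr. In adenoma it ran from -1.71 to 0.84 for Ms4a1, -1.25 to 1.26 for Cd79a, -1.25 to 0.94 for Cd79b, -0.040 to 1.38 for Pou2af1 and -0.17 to 0.80 for Tnfrsf17. In carcinoma it ran from -0.61 to 2.41 for Jchain, -0.12 to 0.58 for Mzb1, -0.036 to 0.65 for Pou2af1 and -0.22 to 0.27 for Tnfrsf17. The difference between the changes ran from -0.16 to 2.40 for Ms4a1, -0.66 to 1.86 for Cd79a, -0.62 to 1.57 for Cd79b, -1.01 to 0.41 for Pou2af1, -0.71 to 0.27 for Tnfrsf17 and -1.65 to 1.36 for Jchain. Late carcinoma against late adenoma ran from -0.40 to 0.47 for Ms4a1 and -0.46 to 0.61 for Pigr, and the early comparison from -2.30 to 0.34 for Ms4a1, -1.70 to 0.33 for Cd79b, -1.03 to 0.21 for Pou2af1 and -0.44 to 0.11 for Mzb1. Mouse 1805 was the animal left out in 14 of the turned results, mouse 2201 in 8, mouse 1755 in 7, mouse 1803 in 3 and mouse 3413 in 1. The number of arrays limits the precision, and signal over background is not given by the deposited values.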

Other observations

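Genes other than antibody genes were also among the 12 with the largest changes in single mice, and were named after their values were seen. The light chain segments Igkv9-120, Igkv8-30 and Igkv19-93, and Jchain, were among the 12 largest increases of both mouse 2201 and mouse 1755. In mouse 2201 the interferon-induced chemokine Cxcl9 was at 12.01 late and 7.69 early, and the class II antigen presentation gene H2-Aa at 12.07 late and 8.34 early. In mouse 1755 the antimicrobial lectins Reg3g and Reg3b were 3.44 and 3.25 higher late, and the mast cell protease Mcpt1 was at 7.32 late and 13.23 early. Rgs13, listed here as a germinal centre gene and also made by mast cells, was at 7.03 late and 10.41 early in mouse 1755, beside a mast cell list mean of 8.41 late and 11.56 early. In mouse 1805 the chemokine Cxcl3 was 4.30 higher late and Alas2, the heme synthesis enzyme of red cell precursors, 4.10.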
